A study of Mus musculus with 23 samples.

Results

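Of 23 single-neuron transcriptomes, 15 carry the title prefix JCb5.2, and 4 of these 15 (cells 2, 9, 14 and 15 by their title numbers) had at least 500 FPKM of Sst, the somatostatin gene. They are called Sst-high cells here and are set beside the other 11 JCb5.2 cells. FPKM counts the fragments of a gene per kilobase of its transcript and scales them to the size of the library. The value that chose the cells was Sst itself, so its difference between the groups is a description. The last cell inside the threshold was cell 2 at 903 FPKM, and the first outside was cell 12 at 177 FPKM.

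All cells of both groups share 1 genotype, vGLUT2-IRES-Cre::loxSTOPlox-L10-GFP. In it, Cre expressed from the locus of VGLUT2, a vesicular glutamate transporter, switches on GFP fused to the ribosomal protein L10, and any cell that made Cre at some time keeps the label. Untreated, GFP-positive neurons were picked by hand from the arcuate hypothalamus of young adult males of mixed background and amplified by SmartSeq2, 1 cell per library. The labels give 2 mice in all and tie no cell to a mouse, and they do not explain the prefixes JCb5.2 and JCb6 (8 cells). Each group therefore holds cells, not replicate animals, and the values below are given without a test.

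Somatostatin is a secreted peptide that slows hormone release and neuronal firing through 5 G protein-coupled receptors, named SSTR1 to SSTR5 for their genes Sstr1 to Sstr5. In the hypothalamus, periventricular somatostatin neurons restrain growth hormone secretion, while arcuate somatostatin neurons include cells that release GABA and cells that overlap with the AgRP and NPY neurons that drive feeding. Transcription of Sst is a classical target of cyclic AMP and the transcription factor CREB, which binds the cyclic AMP response element in its promoter. Cort encodes cortistatin, a related peptide that binds the same receptors.

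The stretch that carries this element is shown because Sst is the gene that defines the cells. The Sst gene lies on chromosome 16 at 23889581 to 23890844 (mm10, minus strand, protein coding). The sequence below is the 100 bases before its RefSeq start site, chr16:23890845-23890944 of GRCm38.p6, read on the gene's strand, with the 8 bases TGACGTCA in capitals 48 to 41 bases upstream of the start.
Sst promoter: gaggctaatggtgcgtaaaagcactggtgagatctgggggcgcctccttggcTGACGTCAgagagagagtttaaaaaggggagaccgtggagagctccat
This palindrome reads the same on both strands. It was found in 588 of 32851 RefSeq windows of 300 bases around start sites, which is 1.79%, and in 549 of 27025 genes, which is 2.03%. Among the 10 other genes that were higher in every Sst-high cell (below), 8 had a window, and 1 of them, Shisa5, held it at 1 of its 5 start sites. Of the 25 genes that were lower, 11 had a window and 0 held it.

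Sst itself stood at 903, 1342, 4394 and 29792 FPKM in cells 2, 9, 14 and 15. In the other 11 the lowest value was 18.6 FPKM (cell 10), the median 41.2 FPKM and the highest 177 FPKM (cell 12). No cell lay between the groups, and within the Sst-high cells the level spanned more than an order of magnitude. Cell 15 alone held 80.5% of the Sst signal summed over the 15 cells, cell 14 held 11.9%, cell 9 3.62% and cell 2 2.44%. The other 11 cells held 0.0503 to 0.478% each. In 24 genes that were high in at most 2 of the 15 cells, the median share found in any remaining cell, called a carry-over index, was 0.0321 to 0.637% in the other cells, again highest in cell 12. The index was 0.109, 0.101, 0.585 and 0.0588% in cells 2, 9, 14 and 15, below their shares of Sst. Whether low Sst values in the other cells are reads from neighbouring libraries was not tested. In the 8 JCb6 cells, Sst reached at most 0.608 FPKM.

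**Figure D1:**
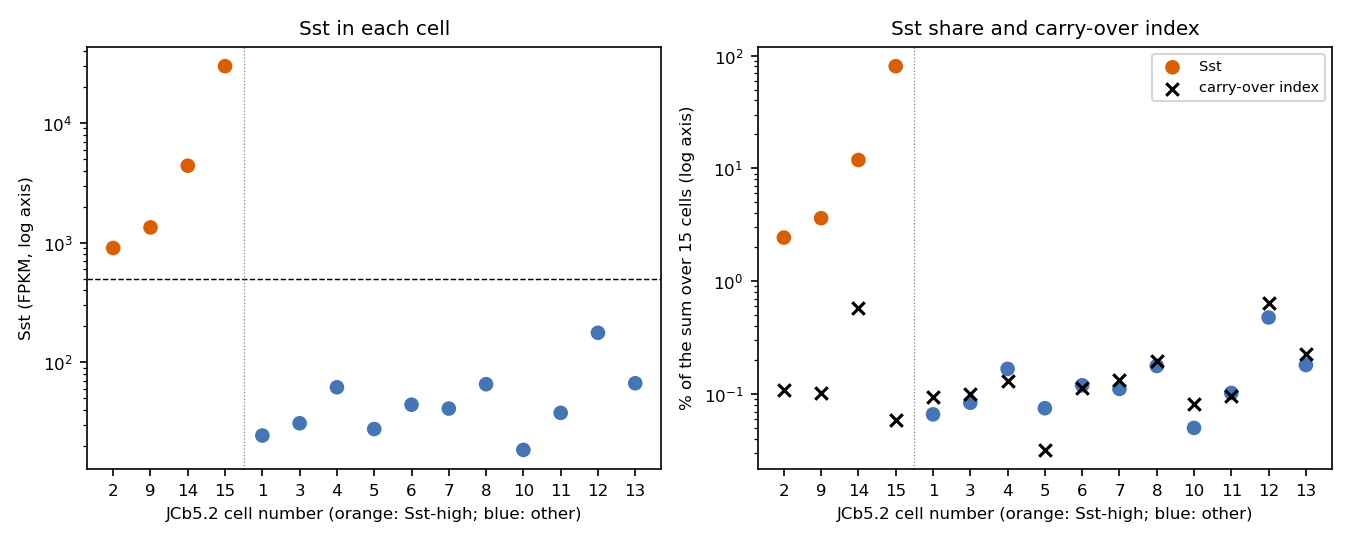
Sst by JCb5.2 cell number. Left, FPKM on a log axis, with the threshold of 500 FPKM as a dashed line; right, each cell's share of Sst summed over the 15 cells (dots) and its carry-over index (crosses), in percent on a log axis. Orange, the 4 Sst-high cells, at 903 FPKM or more; blue, the other 11, at or below 177 FPKM and with shares near their index.

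The receptors for the peptide were unevenly spread over the 4 cells. Sstr1 stood at 0.148, 37.2, 74.9 and 24.0 FPKM in cells 2, 9, 14 and 15, so that cell 2 lacked it, and in the others it ran from 0.122 to 42.4 FPKM. Cell 14 had the highest Sstr1 value of the 15 cells. Sstr2 stood at 0, 0.365, 24.1 and 39.0 FPKM, high in cells 14 and 15 only among the Sst-high cells, and it was also at 25.8 FPKM in cell 11. Sstr4 was at 1.94 FPKM in cell 9 and listed at 0 in the other 14 cells. Sstr5 was at 4.67 FPKM in cell 14 and at most 0.0313 FPKM in the 11 others, while Sstr3 stayed at or below 0.0214 FPKM in the 4 cells. Cort was listed at 0 in all 4. Over the list of 7 genes of the somatostatin system, 3 passed the filter of 1 FPKM in at least 3 of the 15 cells. All 3 were higher by 1 log2 unit or more, against 11.1% of all genes, but Sst is among them and chose the cells.

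Of the fast transmitter genes, Gad1 and Gad2 split the 4 cells into pairs. Slc17a6, which encodes VGLUT2 and drives the reporter's Cre, stood at 67.3, 51.0, 32.1 and 4.47 FPKM in cells 2, 9, 14 and 15, lowest in cell 15, against 0.520 to 78.7 FPKM in the others. Gad1, one of the GABA-synthesising enzymes, stood at 0.435, 0.480, 46.7 and 247 FPKM. The second enzyme, Gad2, stood at 0.441, 0.761, 59.2 and 75.8 FPKM. Cells 2 and 9 thus had neither enzyme at 1 FPKM and cells 14 and 15 had both, cell 15 with the highest Gad1 value of the 15 cells. Among the other cells, 8 of 11 had Gad1 and 9 of 11 had Gad2 at 1 FPKM. Slc32a1, the transporter that loads GABA into vesicles, was at 15.3 FPKM in cell 15 and at most 0.0588 FPKM in the other 3. Mean log2(FPKM + 1) of Gad2 was lower by 1.22 in the Sst-high cells. With a threshold of 1000 FPKM of Sst, which moves cell 2 to the other cells, the difference was 0.073. With cell 2 left out of both groups it was -0.27.

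Cell 15 had the peptides of AgRP neurons. Npy, neuropeptide Y, stood at 3.15, 5.38, 18.5 and 2659.6 FPKM in cells 2, 9, 14 and 15, and among the others only cell 10 had a like value, 2539 FPKM. Agrp, which blocks melanocortin receptors, stood at 2.14, 1.29, 2.87 and 433 FPKM, with 39.7 FPKM in cell 10. Otp, the homeodomain factor of these neurons, stood at 0.153, 0.156, 0.391 and 17.8 FPKM, with 62.6 FPKM in cell 10. Cells 10 and 15 thus had the highest values of these 3 genes among the 15 cells, with like levels of Npy, more Agrp in cell 15 and more Otp in cell 10. Cell 10 had the lowest Sst of the 15. The difference of Npy between the groups was 1.51 on the log2 scale with cell 15 and -0.59 without it.

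Pomc was low in the 4 cells, while other markers of POMC neurons varied. Pomc, the precursor of alpha-MSH, stood at 25.5, 51.3, 259 and 28.1 FPKM in cells 2, 9, 14 and 15, against 60.9 to 9534 FPKM in the other cells (median 1607 FPKM). The groups overlapped through cell 14 and the low Pomc of cells 1, 8 and 10. Cartpt, the precursor of the CART peptide, stood at 1793, 368, 1319.7 and 152 FPKM, with 217 to 32793 FPKM in the others, so that cells 2 and 14 lay above 4 of them. Of the 8 genes of the POMC type list, 4 were lower by 1 log2 unit or more and 0 higher, with 6 differences below and 2 above 0 and a median difference of -1.10. Over the 10506 genes of all kinds that passed the filter, 11.1% were higher and 11.2% lower by that measure, and the median difference was -0.03. Npy1r, a receptor for neuropeptide Y, was also low, at 0.610, 1.25, 5.61 and 0.463 FPKM against 1.32 to 159.8 FPKM.

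Kisspeptin, dopamine and growth hormone-releasing hormone genes did not mark the Sst-high cells. Kiss1 was at 33.3 FPKM in cell 2 and no higher than 7.86 FPKM in cells 9, 14 and 15, against 1485 FPKM in cell 8. Tac2 was at most 2.91 FPKM, in cell 14. Th, of dopamine synthesis, and Ghrh were listed at 0 in all 4. Pdyn, the dynorphin precursor, stood at 82.6, 17.2, 65.5 and 54.4 FPKM, and Gal, which encodes galanin, at 429, 20.3, 231 and 243 FPKM. Both lay within the range of the other cells. From the list of 16 genes for arcuate Sst neuron types, which holds Sst itself, 4 reached 1 FPKM in all 4 cells, 6 in some and 6 in none. Of the 9 that passed the filter, 3 were higher and 1 lower by 1 log2 unit or more, against 11.1 and 11.2% of all genes. Their median difference was 0.22. Unc13c, Tbx19, Pthlh and Htr3b were listed at 0 in all 4 cells. Cbln4, a secreted synapse organiser of that list, was at 62.5 and 91.7 FPKM in cells 14 and 15, at most 0.118 FPKM in cells 2 and 9, and at 14.7 and 10.2 FPKM in cells 3 and 13. In the list of telencephalic Sst interneurons, Lhx6 was at most 0.0541 FPKM in the Sst-high cells. Of its 16 genes, 13 reached 1 FPKM in none of them, as did 11982 of 22635 genes of all kinds. The 4 that passed the filter had 2 differences above and 2 below 0, with a median of 0.14. The list summed to 2673 FPKM in cell 15, against 4.55 to 2540 FPKM in the other 11 cells.

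Transcription factors gave each cell its own profile. Nkx2-1, needed for ventral hypothalamic identity, stood at 57.6, 45.1, 22.8 and 15.1 FPKM in cells 2, 9, 14 and 15, and Isl1, a LIM homeodomain factor of arcuate neurons, at 111, 17.7, 14.8 and 46.4 FPKM. The 4 cells therefore all had these, like most of the others. Tbx3, a T-box factor of the arcuate nucleus, stood at 33.6, 0.444, 65.7 and 11.8 FPKM, and cell 9 was the only one of the 15 cells under 1 FPKM. Cell 9 instead had 60.5 FPKM of Fezf1 and 26.7 FPKM of Sox14. Fezf1, a zinc finger factor of the ventromedial nucleus, was at most 0.534 FPKM in the 11 others, whereas Sox14 was at 33.3 FPKM in cell 8. Nr5a1, the defining factor of the ventromedial nucleus, was listed at 0 in cell 9 and in all other JCb5.2 cells. Bdnf, a growth factor of that list, was at 44.6 FPKM in cell 9 and at most 21.9 FPKM in the 11 others. Cell 2 had 61.5 FPKM of Bsx and 25.7 FPKM of Nhlh2, and cells 2 and 9 had Lhx5 at 29.0 and 26.7 FPKM. Bsx and Nhlh2 did not meet the rule below for genes of cell 2 alone. Lhx5 did not meet the rule for genes of a pair, so none of these was particular to the cells named.

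**Figure D2:**
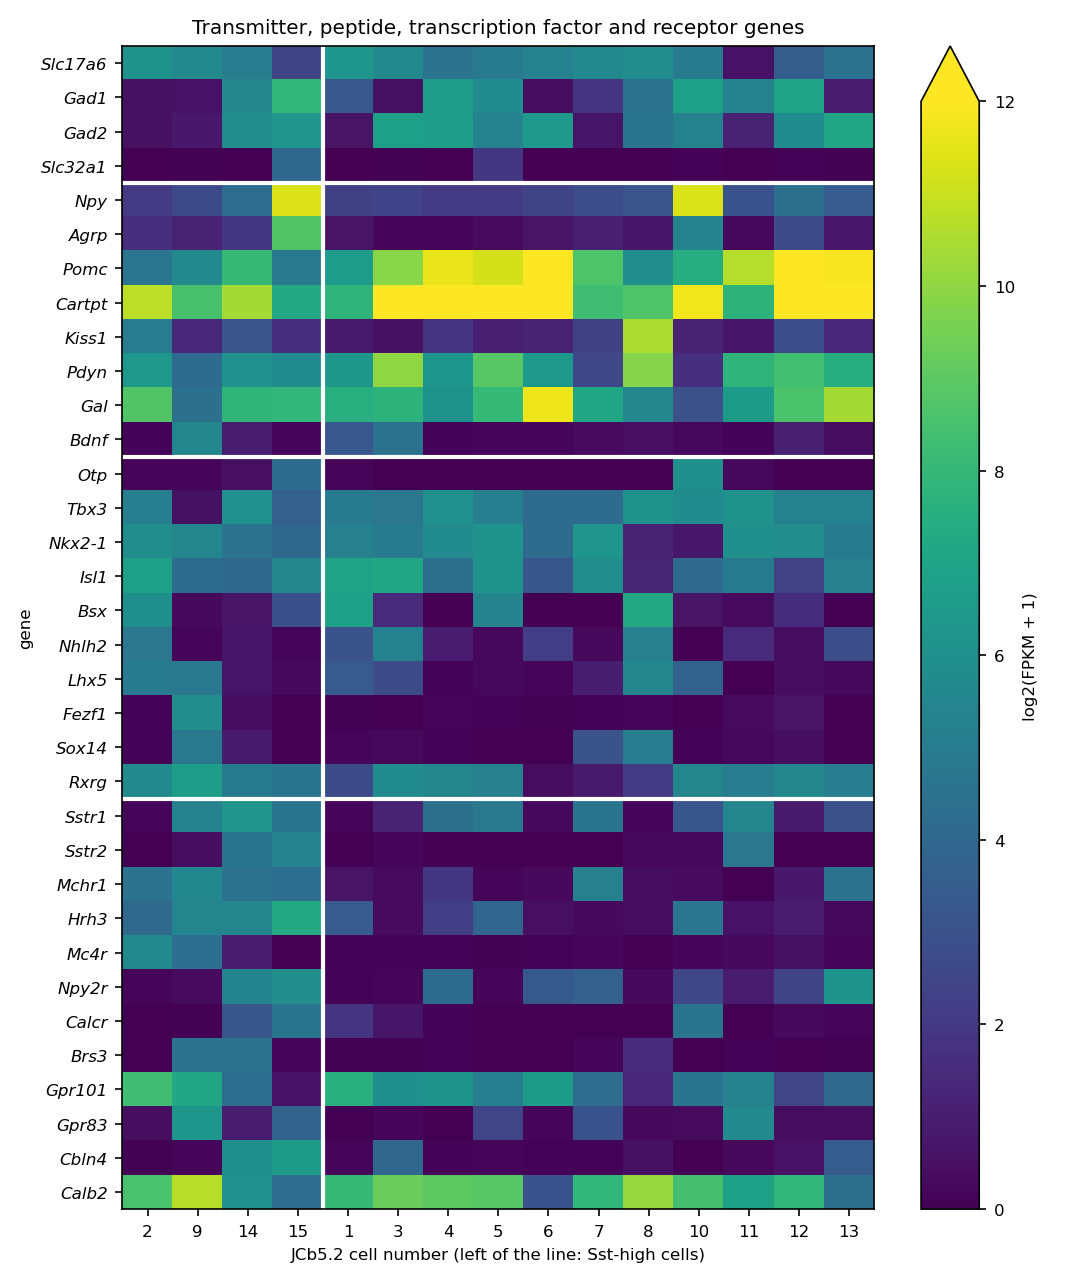
Heat map of transmitter, peptide, transcription factor and receptor genes (rows) in the 15 JCb5.2 cells (columns), as log2(FPKM + 1), with the Sst-high cells left of the white line. Cell 15 is bright for Npy, Agrp, Otp and Slc32a1, cell 9 for Fezf1 and Bdnf, cells 2 and 9 for Mc4r, cells 14 and 15 for Cbln4 and Sstr2, and Pomc is darker in the 4 cells than in most others.

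Receptors that sense other peptides and amines included some found in all 4 cells. Mchr1, the receptor of melanin-concentrating hormone, stood at 22.9, 47.2, 22.4 and 18.9 FPKM in cells 2, 9, 14 and 15. Cells 7 and 13 had 36.8 and 22.9 FPKM, and the level was at most 2.86 FPKM in the remaining 9. Hrh3, a histamine receptor that dampens transmitter release, stood at 16.9, 42.4, 42.9 and 155 FPKM, highest in cell 15. Only cell 10, at 25.2 FPKM, exceeded the lowest of the 4. Rxrg, a retinoid X receptor, was at 51.3, 101, 29.8 and 23.4 FPKM, within the range of several other cells. Of the 29 receptors of the list that passed the filter, 8 were higher and 5 lower by 1 log2 unit or more, against 11.1 and 11.2% of all genes. Their median difference was 0.22.

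Other receptors belonged to pairs. Mc4r, the melanocortin receptor through which alpha-MSH suppresses feeding, stood at 50.001, 20.04, 0.890 and 0 FPKM in cells 2, 9, 14 and 15, and at most 0.436 FPKM in the 11 other cells. Npy2r was at 42.3 and 59.4 FPKM in cells 14 and 15 and at 74.1 FPKM in cell 13. Calcr, the calcitonin and amylin receptor, was at 8.38 and 23.7 FPKM there and at 23.9 FPKM in cell 10. Brs3, an orphan receptor linked to energy balance, stood at 22.7 and 21.2 FPKM in cells 9 and 14 and at most 1.85 FPKM in the 11 others. Receptors of 1 cell were Kiss1r at 12.0 FPKM in cell 14 and Tacr3 at 11.6 FPKM in cell 15, the latter also at 18.5 FPKM in cell 8. Cell 9 had 77.5 FPKM of Gpr83 and 7.65 FPKM of Trhr, the thyrotropin-releasing hormone receptor, and cell 2 had 314 FPKM of Gpr101, the highest of the 15. Lepr, the leptin receptor, was at most 0.126 FPKM in the 4 cells, while 4 of the 11 others were above 1 FPKM.

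Leaving out loci shorter than 300 bp, 11 of 10506 genes (0.105%) were higher in every Sst-high cell than in any other JCb5.2 cell, Sst among them. How many genes another choice of 4 JCb5.2 cells would give, in this or the other direction, was not counted. Snx8, a sorting nexin of endosomes, stood at 44.1, 17.6, 21.6 and 53.4 FPKM in cells 2, 9, 14 and 15 and at most 1.79 FPKM in the others. Atp1b2, a subunit of the sodium pump, stood at 67.4, 50.9, 33.7 and 58.5 FPKM, with up to 24.6 FPKM in the others. Mmab, an enzyme of vitamin B12 metabolism, stood at 24.5, 50.9, 27.1 and 35.4 FPKM, against a highest other value of 18.7 FPKM. The separation of the groups is the rule by which these genes were chosen, and several other cells had intermediate values of Atp1b2 and Mmab. Nrep, linked to axon regeneration, ran from 6.01 to 11.1 FPKM in the 4 cells and was at most 0.411 FPKM in the others. Nrep thus passed the filter of 1 FPKM in at least 3 cells only through the Sst-high cells. Slc27a1, a fatty acid transporter, ran from 8.22 to 15.2 FPKM against at most 4.12 FPKM.

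The remaining genes of this group were closer to the other cells. Shisa5, a membrane protein of the endoplasmic reticulum, stood at 61.8, 80.5, 67.4 and 114 FPKM in cells 2, 9, 14 and 15 with a highest other value of 57.8 FPKM. Rsph9, a radial spoke protein of motile cilia, stood at 104, 146, 121 and 146 FPKM against at most 86.7 FPKM. Gna11, a G protein alpha subunit of the Gq class, stood at 37.8, 47.4, 34.5 and 35.7 FPKM against at most 33.9 FPKM, a gap of under 1 FPKM. Cherp, a calcium homeostasis protein, ran from 20.1 to 31.5 FPKM against at most 19.1 FPKM. Sesn2, a stress-induced regulator of growth signalling, was at 0.366, 13.0, 9.21 and 28.8 FPKM and lay outside the naming rule because of cell 2. Every other JCb5.2 cell was below 0.366 FPKM, so Sesn2 passed the filter only through cells 9, 14 and 15. In JCb6 cells, which lacked Sst, 4 of 8 had more Snx8 and 4 of 8 more Slc27a1 than any of the 11 other JCb5.2 cells. For Gna11 this held in 3, for Atp1b2, Nrep, Shisa5 and Rsph9 in 2 each, and for Mmab and Cherp in 0. When the JCb6 cells were added to the others, 3 genes remained above all of them, namely Sst, Mmab and Cherp.

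In the other direction, 25 of 10506 genes (0.238%) were lower in every Sst-high cell than in any other JCb5.2 cell. Golga7, a partner of a palmitoyl transferase at the Golgi, stood at 0.152, 0.117, 0.975 and 0.0822 FPKM in cells 2, 9, 14 and 15, while the others ran from 2.38 to 33.9 FPKM. Pcdh17, a protocadherin of cell adhesion, stood at 1.67, 6.33, 2.43 and 3.19 FPKM against 8.83 to 42.0 FPKM. Btg1, an antiproliferative factor, stood at 5.23, 0.509, 0.637 and 0.974 FPKM against 6.07 to 23.9 FPKM. Golga7 was under 1 FPKM in all 4 Sst-high cells and Btg1 in 3 of them, whereas Pcdh17 was above 1 FPKM in all 4. Tppp3, a tubulin polymerisation protein, ran from 17.8 to 44.6 FPKM in the 4 cells and from 55.4 to 158 FPKM in the others. AW549542 was at most 0.978 FPKM against 4.72 to 60.5 FPKM, and Rgag4 at most 3.67 against 3.70 to 30.8 FPKM. Cox16, an assembly factor of cytochrome oxidase, was at 8.44 to 14.9 FPKM against 18.4 to 77.6 FPKM.

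**Figure D3:**
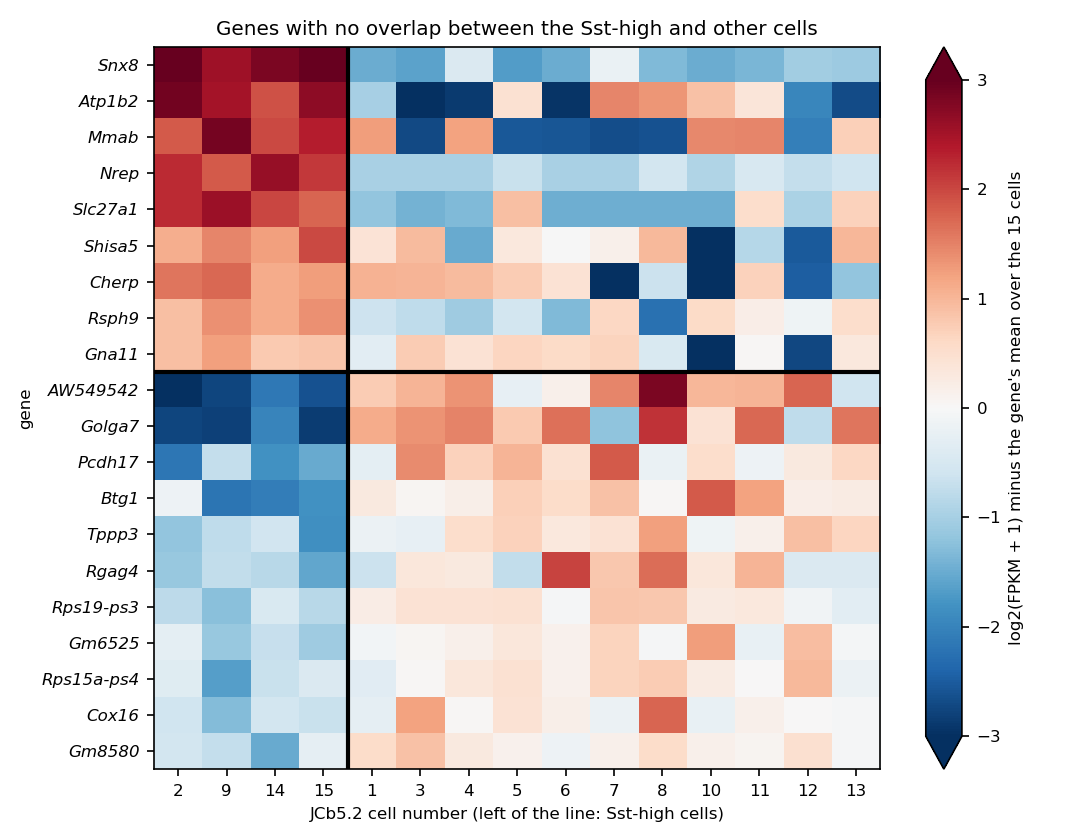
Heat map of named genes with no overlap between the groups in the 15 JCb5.2 cells, as log2(FPKM + 1) minus each gene's mean over the 15 cells; red is above and blue below that mean, and the vertical line separates the 4 Sst-high cells. The 9 genes above the horizontal line (Sst is left out) are red in every Sst-high cell, and the 11 below it (genes of the small ribosomal subunit are left out) are blue there, most strongly AW549542 and Golga7.

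The counts rested on which cells were included. Without cell 2, 9, 14 or 15, the genes higher in all remaining Sst-high cells numbered 32, 28, 45 and 23, and those lower in all 51, 38, 86 and 57, since fewer cells then had to qualify. Scaling also moved the balance. With each cell rescaled to a sum of 1000000, 24 genes were higher and 11 lower in every Sst-high cell, compared with 11 and 25 in the deposited values. All 11 higher genes were among those 24, and all of the 11 lower genes were among the 25. FPKM sums were 379230 in cell 14 and 466924 to 500405 in cells 2, 9 and 15, against 491411 to 614633 in the other cells.

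Genes of the cytosolic ribosome made up much of the lower group. Of the 25 genes, 11 encode ribosomal proteins and 2 more are named as pseudogenes of such genes. The 11 are out of 78 ribosomal protein genes that passed the filter, whereas 0.238% of all 10506 genes were lower in this way. Rps27a, made as a fusion with ubiquitin, stood at 375, 198, 499.9 and 373 FPKM in cells 2, 9, 14 and 15 and ran from 524 to 1236 FPKM in the others. Rpl3, of the large subunit, stood at 1405, 712, 1538 and 1411 FPKM against 1840.0 to 3162 FPKM. In both, cell 9 was lowest and the groups did not overlap. Rps6, Rps15a, Rps19, Rpl9, Rpl17, Rpl41 and Rplp0 were also among them. Rps15a and Rps19 share near-identical sequence with Rps15a-ps4 and Rps19-ps3, which are in the same group, so how reads divided between a gene and its copy is uncertain.

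Over the whole family, a list added after the data had been seen, 77 of 78 ribosomal protein genes that passed the filter had a lower mean log2 value in the Sst-high cells. Their median difference was -0.78, with -0.69 for the large and -0.82 for the small subunit, against -0.03 over all genes. The family summed to 46813, 24499, 47892 and 49616 FPKM in cells 2, 9, 14 and 15 and to 54248 to 86770 FPKM in the others, without overlap. JCb6 cells summed to 53613 to 169195 FPKM. As a share of each cell's FPKM sum, the values were 9.40, 5.25, 12.6 and 9.92% against 10.8 to 17.0%, and cell 14 then lay among the other cells. With cells rescaled to equal sums, the median difference was -0.65 and 3 of the 11 genes were still below all other cells. Leaving out cell 9 gave -0.56, and leaving out cell 15 raised the count of genes lower in all from 11 to 19. Ranking the 15 cells from lowest to highest in each gene, the median rank was 4 in cells 2, 14 and 15 and 1 in cell 9, and 6 to 13 in the others.

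**Figure D4:**
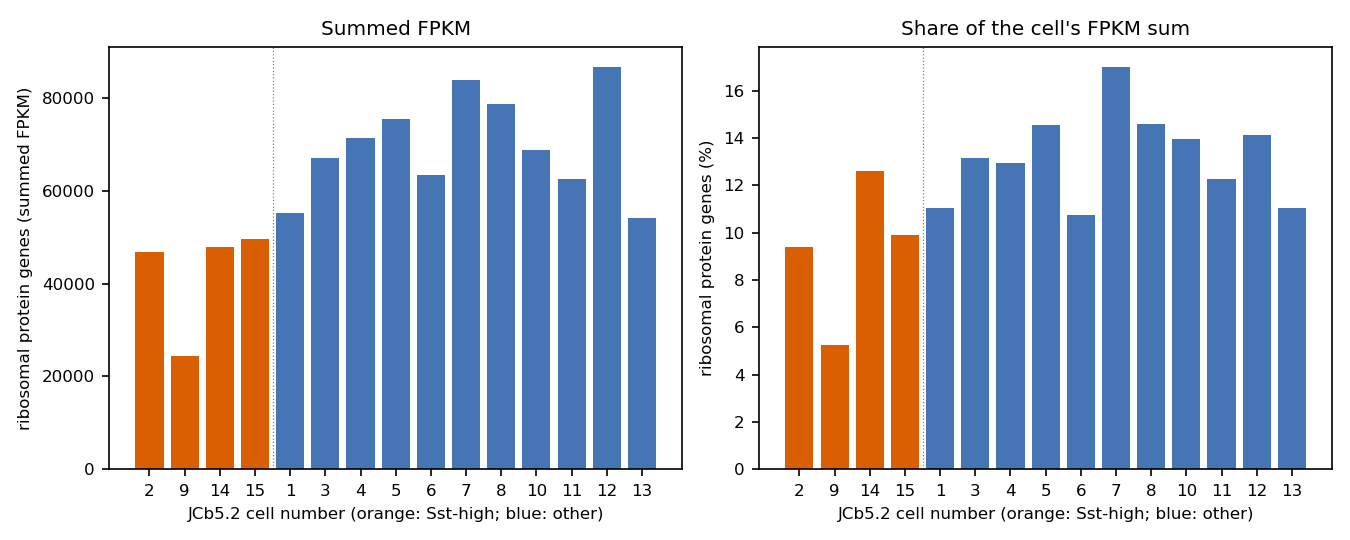
Cytosolic ribosomal protein genes by JCb5.2 cell number, as summed FPKM (left) and as a percentage of each cell's FPKM sum (right); orange bars are the 4 Sst-high cells and blue bars the other 11. On the left all orange bars, up to 49616 FPKM, are below the lowest blue bar, 54248 FPKM; on the right cell 14, at 12.6%, is among the blue bars.

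Related families were added with the ribosomal list, and some moved little. Of 9 translation elongation factors, Eef1g was lower in every Sst-high cell, at 274, 267, 238 and 195 FPKM in cells 2, 9, 14 and 15 against 278 to 519 FPKM. Eef1a1, which carries aminoacyl-tRNA to the ribosome, stood at 368, 201, 537 and 295 FPKM, and of the others only cell 3, at 301 FPKM, was in that range. The median difference of the 9 was -0.73. It was -0.15 for 51 initiation factors, 0.01 for 76 mitochondrial ribosomal proteins, 0.07 for 85 nuclear genes of oxidative phosphorylation and -0.02 for 45 proteasome genes. The genotype label names the ribosomal part of the reporter only as L10. Rpl10a, of the large subunit, stood at 391, 181, 240.2 and 510.1 FPKM against 329.9 to 861 FPKM.

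The gene lists as a whole gave a similar picture of few shared differences. Of 32 lists, 6 had a median difference at least 0.5 log2 units away from that of all genes. Beyond the somatostatin system and the POMC type, these were other transmitter phenotypes (-1.25 over 3 genes), immediate-early genes (-0.71 over 23), astrocytes (-0.57 over 2) and red blood cells (1.16 over 4). Immediate-early genes, which answer neuronal activity and stress within minutes, were uneven across the 4 cells. Fos stood at 782, 25.0, 412 and 1435 FPKM and Jun at 109.7, 2.36, 273 and 263 FPKM in cells 2, 9, 14 and 15. Dusp1, a phosphatase of the same response, stood at 325, 3.25, 114 and 692 FPKM. Cell 9 had the lowest value of the 15 cells for each of the 3, and cell 15 was within the upper part of the range of the others. Of the list's 23 genes, 7 were lower and 2 higher by 1 log2 unit or more, against 11.2 and 11.1% of all genes.

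**Figure D5:**
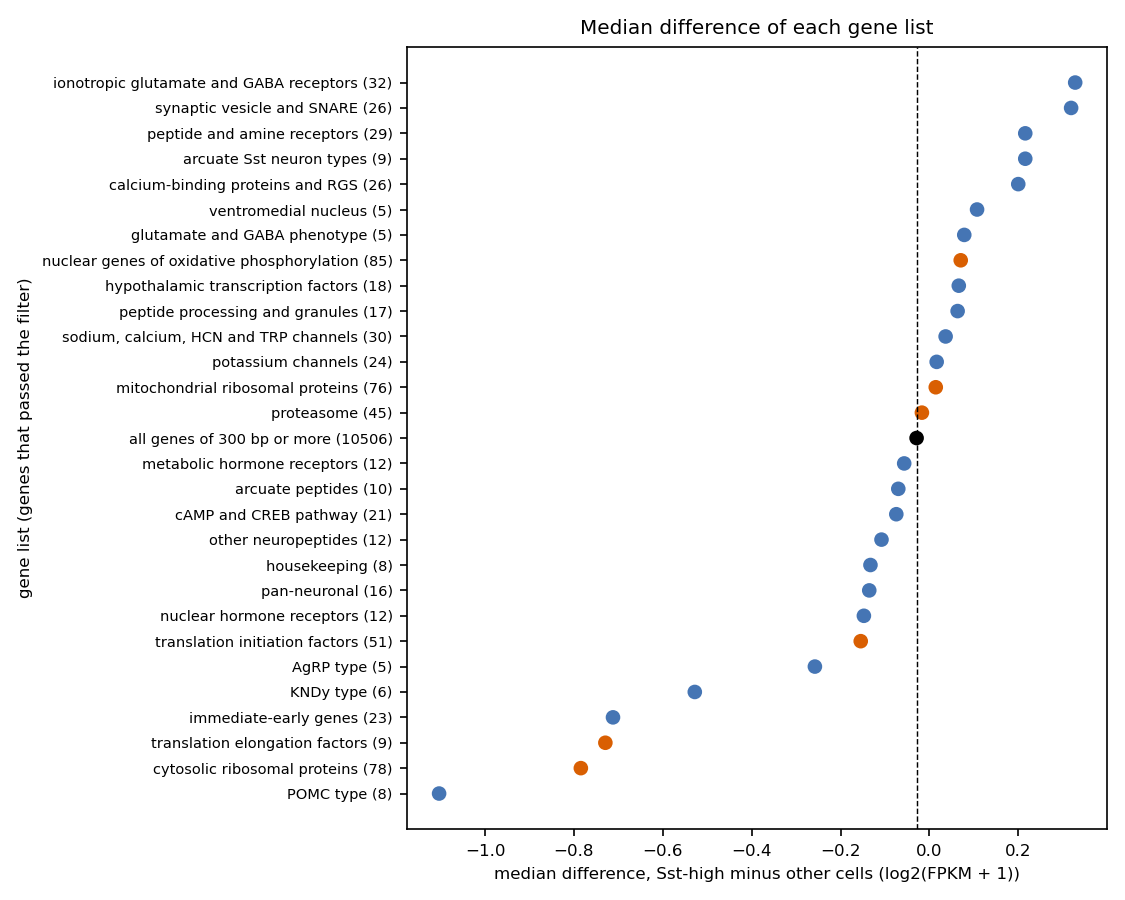
Median difference of each gene list with at least 5 genes that passed the filter (number in brackets), as mean log2(FPKM + 1) of the Sst-high cells minus that of the other JCb5.2 cells. The dashed line and black dot mark all genes, at -0.03; orange dots are the families added after the data had been seen and blue dots the other lists. The POMC type, at -1.10, and cytosolic ribosomal proteins, at -0.78, lie farthest to the left.

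Most genes for making and releasing peptides were present in the 4 cells. Of 19 genes of peptide processing and granules, 14 reached 1 FPKM in all 4, 3 in some and 2 in none. Their sums, 2185 to 3459 FPKM, overlapped those of the other cells, 2258 to 3919 FPKM. Of 17 genes of peptide processing and granules that passed the filter, 2 were higher and 0 lower by 1 log2 unit or more, against 11.1 and 11.2% of all genes, with a median difference of 0.06. Pcsk2, a convertase that cuts prosomatostatin, was at 10.1, 33.0, 38.9 and 96.5 FPKM in cells 2, 9, 14 and 15. Its sister Pcsk1 was at 76.5, 0.264, 1.16 and 6.77 FPKM, highest in cell 2. Cpe, which trims the cut peptides, was at 257, 494, 549.6 and 489.9 FPKM. All 3 overlapped with the other cells. Among 21 genes of the cyclic AMP and CREB pathway, 3 were higher and 2 lower, with a median of -0.07. Creb1 was at 0.0230, 2.43, 0.0456 and 0.397 FPKM and the CREB coactivator Crtc1 at 26.1, 49.6, 22.5 and 21.6 FPKM.

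At 1 FPKM, 3698 of 22635 genes (16.3%) were present in all 4 Sst-high cells. Each cell also had genes of its own, defined as at least 20 FPKM and 10-fold above every other JCb5.2 cell after 1 was added to each value. Cell 2 had 22 of these (0.0972% of 22635), cell 9 had 13 (0.0574%), cell 14 had 9 (0.0398%) and cell 15 had 8 (0.0353%). The other 11 cells had 8 to 27 each, so the Sst-high cells were not set apart by this count. In cell 2 they included Got1l1 at 61.6 FPKM, the matrix protein Smoc2 at 40.8 FPKM, the glycine cleavage enzyme Amt at 27.2 FPKM and the chemokine Cxcl10 at 33.2 FPKM. In cell 9, besides Fezf1, they included the histone Hist1h1a at 35.2 FPKM, the glycine receptor subunit Glra4 at 29.8 FPKM and the potassium channel subunit Kcnmb3 at 27.6 FPKM. Those of cell 14 included the interferon Ifnl3 at 39.5 FPKM, the Mediator subunit Med18 at 31.3 FPKM, the transcription factor Batf at 25.7 FPKM and the keratin Krt18 at 25.3 FPKM. Those of cell 15 were led by the microRNA locus Mir680-2 at 268 FPKM, listed at 0 in the other 14 cells, and included Agrp, Kcne1l at 22.9 FPKM, the actin-severing protein Gsn at 31.1 FPKM and Mfge8 at 20.9 FPKM.

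Some genes stood out in a pair of Sst-high cells, by a looser rule than that for a single cell. By a rule of at least 10 FPKM in each and 3-fold above the highest remaining cell, cells 2 and 9 shared 7 genes, as did cells 14 and 15. Cells 9 and 15 shared 6, cells 2 and 15 shared 5, cells 9 and 14 shared 4 and cells 2 and 14 shared 2. All are counts among 22635 genes, and how many another pair or trio of JCb5.2 cells would share was not counted. Besides Mc4r, cells 2 and 9 shared Acbd7 at 48.3 and 81.3 FPKM and Rprml at 52.9 and 19.0 FPKM. Cells 14 and 15 shared Sst, which chose the cells, Cbln4 and Rbp4, a retinol carrier at 17.9 and 77.6 FPKM. The calcium sensor Hpca was at 154 and 50.6 FPKM in cells 9 and 15, with Thy1 at 43.6 and 41.5 FPKM. Cells 2 and 15 shared Cox6a2, a cytochrome oxidase subunit, at 208 and 40.8 FPKM, and cells 2 and 14 shared the peptide transporter Tap1 at 24.1 and 31.9 FPKM. Of the 4 possible trios, only cells 2, 14 and 15 shared a gene, the kinase Map3k11, at 11.8, 10.8 and 22.9 FPKM.

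Across 10505 genes without Sst, the Sst-high cells were about as like each other as they were like the rest. Pearson's r of log2(FPKM + 1) had a median of 0.679 over the 6 pairs of Sst-high cells (0.646 to 0.706). It was 0.672 over the 44 pairs of an Sst-high with an other cell (0.610 to 0.727) and 0.669 over the 55 pairs of other cells (0.623 to 0.741). These correlations run across genes of single libraries, and pairs share cells. Cells 2, 9 and 14 were each most like cell 13, at 0.706, 0.691 and 0.727, and cell 15 was most like cell 14, at 0.706. Cell 13 had the largest number of genes at 1 FPKM of the 15.

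All 4 cells had the transcripts of neurons. Of 17 pan-neuronal genes, 15, 15, 15 and 14 reached 1 FPKM in cells 2, 9, 14 and 15, with Uchl1 at 679, 1061, 549 and 616 FPKM. Cell 2 differed in 2 neuronal long non-coding RNAs, Meg3 at 3.91 FPKM and Snhg11 at 4.28 FPKM, whose lowest values in the 14 other cells were 65.0 FPKM in cell 10 and 104 FPKM in cell 14. Markers of other cell types were few. No microglial gene of 7 reached 1 FPKM in the 4 cells, with summed levels of 0.185 to 0.582 FPKM against 0.102 to 9.63 FPKM in the others. Of 7 astrocyte genes, Gfap reached it in cell 2 and Slc1a2 in cell 14 (sums 0.0149 to 1.61 FPKM against 0 to 166 FPKM), and Slc1a3 was listed at 0. Of 10 oligodendrocyte genes, cell 9 had 3, with Mag at 15.1 FPKM (sums 1.10 to 27.1 FPKM against 0.218 to 53.4 FPKM). The 11 endothelial and mural genes summed to 0.196 to 6.87 FPKM against 0.221 to 9.99 FPKM, with Cldn5 listed at 0, and the 9 tanycyte and ependymal genes to 0.367 to 46.3 FPKM against 0.317 to 259 FPKM, with Rax listed at 0. Haemoglobin and Alas2 transcripts of red blood cells summed to 34.9 to 440 FPKM against 3.45 to 622 FPKM. The part of such transcripts in the differences above was not tested.

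The libraries were of like breadth. Genes of at least 300 bp at 1 FPKM numbered 6599, 6880, 7097 and 7267 in cells 2, 9, 14 and 15 and 6345 to 7988 in the others. Absolute depth is unknown, and relative depth, which the steps between low values give and which is set to 1 in cell 12, was 1.504, 1.47, 0.587 and 1.39 in the 4 cells and 0.995 to 1.94 in the others. Cell 14 was thus the shallowest of the 15, and values of a few FPKM are least certain there. Counts without cell 14 are given above, and the part of its low depth in the results was not tested.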

How the data were processed

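Single GFP-positive neurons were lysed and amplified by SmartSeq2 and sequenced from Ovation Rapid libraries (NuGen), per the labels' protocols. CASAVA 1.8, TopHat, Cufflinks and mm10 are named in the submitters' processing notes; the annotation is not given in the sources used here. FPKM values per gene and cell, with the coordinates of each locus, are in the single table that the authors deposited. No molecular identifiers were used, so amplified copies count as reads, and 1 very abundant transcript lowers every other FPKM of a cell.

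Of 23896 rows, 12 spreadsheet leftovers, 286 identical copies and 27 rows with date-like names were dropped. Rows sharing a symbol were then summed (124 symbols), which gave 23373 genes, 22635 with a locus of at least 300 bp. Genes compared between the groups had at least 1 FPKM in at least 3 of the 15 cells (10506 genes). Differences are between means of log2(FPKM + 1). With 1 cell per library and cells not tied to animals, no test was made. The code of the comparison was run on simulated data with the same noise in every gene and large planted differences. Single-cell values are not of that kind, so this does not show how the rules behave in them.

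Members, lists and rules were chosen with earlier results of these data known, and the ribosomal and related families were added after the data had been seen. Named genes are a core set of transmitter and peptide genes, up to 15 genes per direction without overlap and with a lowest value of at least 1 FPKM in the higher group, up to 12 per Sst-high cell and up to 5 per pair or trio, and in each list up to 5 members with the highest value. Rpl3 and other ribosomal genes beyond 15, Sesn2, and some receptors and transcription factors of the lists were chosen after their values were seen. Results for a few genes are not reported here. Promoter sequence is from RefSeq on GRCm38.p6, and strand and gene type are from GENCODE M21. Alternatives were other pseudocounts, filters, locus lengths, scalings, Sst thresholds and sets of cells. The software was pandas 2.3.3, numpy 2.4.6, scipy 1.17.1 and matplotlib 3.10.9 under Python 3.11.15.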

Additional observations from a re-analysis of the deposited data

Results flagged for a closer look

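Among 38 genes of the somatostatin, transmitter and peptide sets and of the groups without overlap, 5 had 1 Sst-high cell far from the other 3. The gap on the log2(FPKM + 1) scale exceeded Dixon's 95% critical value for 4 values, which chance alone passes in about 1 of 20 groups, and is used here only to describe. Cell 15 stood apart in 3 genes of AgRP and GABA neurons. Agrp was at 433 FPKM there and at most 2.87 FPKM in the other 3 cells, Otp at 17.8 against at most 0.391 FPKM, and Slc32a1 at 15.3 against at most 0.0588 FPKM. Cell 14 stood apart in Tac2, at 2.91 against at most 0.641 FPKM. Its share of Tac2 summed over the 15 cells was 0.231%, below its carry-over index of 0.585%, and cell 8 held 98.9%. Whether the Tac2 reads of cell 14 come from neighbouring libraries was not tested. Cell 9 stood apart in Cox16, at 8.44 FPKM against 13.8 to 14.9 FPKM. Another 2 genes, Sstr4 and Sstr5, were left out because the other 3 cells were all at 0, which fixes the ratio. The number of reads behind low values such as that of Tac2 is unknown.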

How the results depend on the processing

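With a pseudocount of 0.1, 1987 genes were higher and 2377 lower by 1 log2 unit or more, 10 lists stood 0.5 away from all genes, and the median r of Sst-high pairs was 0.614. That r was 0.785 with no filter, 0.635 with a filter of 5 FPKM in 3 cells and 0.613 by Spearman's rank correlation. The stricter filter left 1 gene particular to an Sst-high cell, since it removes genes of few cells. Rescaling each cell to 1000000 gave 24 higher and 11 lower genes without overlap, 3 of them ribosomal protein genes, 1793 genes higher by 1 log2 unit or more and 150 particular genes, more of which then reach 20. A threshold of 1000 FPKM of Sst, which moves cell 2 to the other cells, gave 26 higher genes without overlap and 30 particular genes. The Gad2 difference then became 0.073. Adding JCb6 to the other cells left 3 higher and 10 lower genes without overlap and 31 particular genes. Leaving out each Sst-high cell in turn gave 23 to 45 higher genes, 38 to 86 lower genes and 11 to 19 ribosomal protein genes lower in all, and an Npy difference of -0.59 (without cell 15) to 2.52. A threshold of 250 FPKM chooses the same 4 cells. Of 643 recomputed differences of 46 named genes over these alternatives, 17 in 9 genes changed sign. Filters, locus lengths and the threshold of 250 FPKM cannot change a gene's difference, so their share of the 643 tests nothing. Of the 17, 14 came from leaving out a cell or from an Sst threshold. Gad2 and Npy (above) gave 2 of the 17 and had a difference of 1 or more to begin with. The others started from at most 0.82, in Slc17a6, Gad1, Kiss1, Gal, Sstr5, Slc32a1 and Otp. No paired analysis was possible because the groups are sets of cells that share no replicate numbers. Depth limits the low values, most in cell 14.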

Other observations

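Ion channel and receptor subunits also differed within the Sst-high cells. Of 32 ionotropic glutamate and GABA receptor and related genes that passed the filter, 3 were higher and 0 lower by 1 log2 unit or more, against 11.1 and 11.2% of all genes, with a median difference of 0.33. Gabre, the epsilon subunit of the GABA-A receptor, stood at 104, 20.9, 17.2 and 34.2 FPKM in cells 2, 9, 14 and 15, and the others ran from 0.180 to 58.3 FPKM with a median of 2.82 FPKM. Kcnip4, which modulates A-type potassium channels, was at 169 and 135 FPKM in cells 2 and 9, 2.35 FPKM in cell 14 and listed at 0 in cell 15. Kcnip4 therefore split the 4 cells as Gad1 and Gad2 did.

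Calcium-binding proteins differed as well. Calb2, calretinin, stood at 371, 1654, 65.8 and 18.4 FPKM in cells 2, 9, 14 and 15, highest in cell 9 among all 15 cells. Calb1, calbindin, stood at 715, 491, 59.2 and 202 FPKM. Of 26 genes of this list, 3 were higher and 1 lower by 1 log2 unit or more, against 11.1 and 11.2% of all genes. Of 26 synaptic vesicle and SNARE genes, 5 were higher and 2 lower, against the same shares, with a median difference of 0.32 against -0.03 over all genes. Among nuclear receptors, Nr3c1, the glucocorticoid receptor, stood at 24.2, 0.125, 15.1 and 23.8 FPKM and was under 1 FPKM in cell 9. Thrb, a thyroid hormone receptor, stood at 5.36, 26.9, 3.58 and 6.64 FPKM, highest in cell 9.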
